A study of Arabidopsis thaliana with 9 samples.

Results

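The first 30 min after leaf wounding were examined in 6 of the 9 leaf libraries of the study, all from wild-type plants of the Arabidopsis thaliana ecotype Col-0. Leaves harvested 30 min after wounding (3 biological replicates) were compared with leaves harvested before wounding (3 biological replicates). The rest of the series, 3 libraries of leaves harvested 60 min after wounding, entered the fit to help estimate the spread. They were compared only with the 30 min libraries. Polyadenylated RNA was sequenced, and reads were counted per gene. Libraries from before wounding held 22470198 to 22970735 counts and those from 30 min held 14300929 to 22603929, with replicate 1 at 30 min the shallowest. Plants grew in soil under short days, and no leaf was both unwounded and harvested with the 30 min leaves, so the time since wounding and the time of day cannot be told apart. The labels do not say how leaves were wounded or whether a replicate is 1 plant or several. Where a wounded or unwounded leaf is named below, 1 library is meant, which can stand for several leaves. Whole leaves were sampled, so fewer cells of a type and less RNA per cell cannot be told apart either. Markers of mesophyll, epidermis and vasculature were all detected and none was called at 30 min, while 8 markers of root and inflorescence held 0 to 13 counts in any library. Of the 4 guard cell markers 3 rose, FAMA, HT1 and MYB60, and of the 3 trichome markers 2 fell, MYB106 and TRY.

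A wounded leaf releases cell contents and peptides that receptors at the surface of neighbouring cells bind, and calcium enters the cytosol. Kinase cascades and calcium sensors then act on transcription factors that are already present, and the genes that respond earliest are mostly short genes for further transcription factors, enzymes of hormone synthesis and regulators. Jasmonate is the best known wound hormone, and the genes for its synthesis and signalling respond within minutes. The comparison here concerns the functions beyond jasmonate: perception, transcription, secretion, protein synthesis, primary and secondary metabolism, light and growth.

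Of 27206 genes in the count table, 17622 were expressed highly enough to be tested with edgeR's quasi-likelihood test, and a gene was called where its adjusted p was below 0.05. At 30 min 4930 genes (28.0%) were called, of which 2561 (14.5%) were higher and 2369 (13.4%) were lower. At least 4-fold changes were found for 478 genes called higher (2.71%) and 232 called lower (1.32%). The 2561 genes called higher took 4.89% to 5.41% of the tested reads before wounding and 11.4% to 12.9% at 30 min. The 2369 genes called lower took 15.99% to 16.4% before and 9.69% to 10.2% at 30 min. A single exon was annotated in 27.4% of the genes higher by at least 4-fold, in 29.3% of those lower by at least 4-fold and in 14.5% of all tested genes with an annotation. From 30 to 60 min 127 genes (0.721%) were called higher and 229 (1.3%) lower. Scaling to library size alone called 2855 genes higher and 1802 lower and moved the median log2 change of all genes from 0.02 to 0.12. Of 38 tested jasmonate genes, 33 were called higher and 0 lower, with 1 lower at an unadjusted p under 0.05 in edgeR and 0 lower by DESeq2, and they are not described further.

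**Figure D1:**
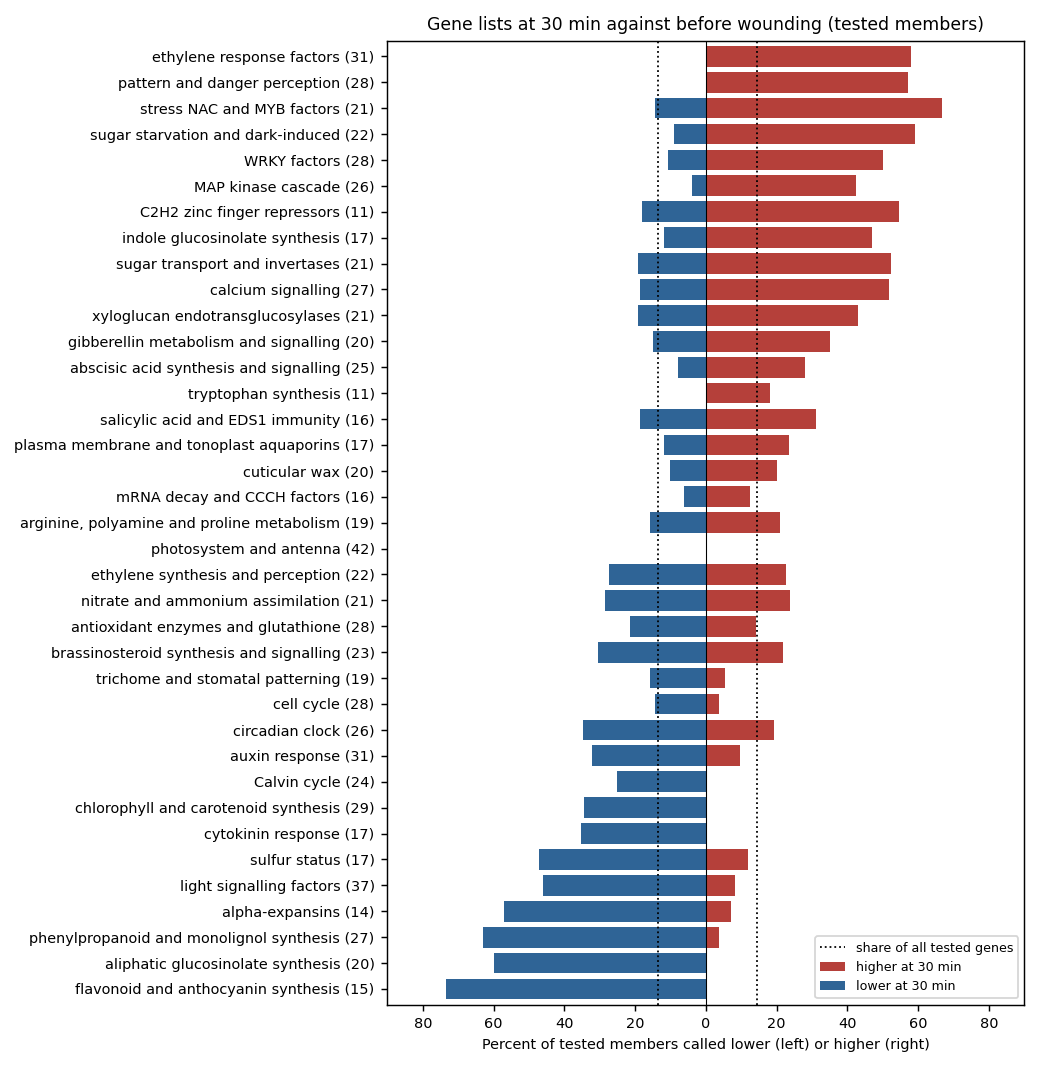
Percent of tested members called higher (right, red) or lower (left, blue) in each of 37 gene lists at 30 min, with the number tested in brackets and the shares among all tested genes (14.5% higher, 13.4% lower) as dotted lines. Stress NAC and MYB factors, starvation genes, ethylene response factors and danger perception reach furthest right, flavonoid, aliphatic glucosinolate and phenylpropanoid synthesis furthest left, and photosystem genes have no bar.

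Outside the jasmonate genes, the largest fitted rises among genes at 1 CPM or more before wounding joined stress proteins to enzymes that break down amino acids and to wall enzymes. CPM is the count divided by the scaled library total and multiplied by 1000000. ERD7 (AT2G17840), which encodes a protein associated with senescence and dehydration, stood at 5.13, 4.35 and 3.96 CPM before wounding and 216, 236 and 237 CPM at 30 min (log2 change 5.67 ± 0.26 SE, adjusted p = 9.48e-09). The transporter gene AT1G61890 of the MATE efflux family stood at 4.12, 4.01 and 3.96 CPM before wounding and 164, 148 and 171 CPM at 30 min (log2 change 5.32 ± 0.17 SE, adjusted p = 6.08e-10). All 3 wounded leaves were high and close together in both genes. WRKY18 (AT4G31800), a transcription factor of the defence response, stood at 8.16, 5.22 and 5.32 CPM before wounding and 164, 157 and 233 CPM at 30 min (log2 change 4.88 ± 0.23 SE, adjusted p = 1.13e-08). LTI78 (AT5G52310), a dehydration and cold response gene also known as RD29A, stood at 5.92, 5.17 and 2.06 CPM before wounding and 83.8, 96.4 and 141 CPM at 30 min (log2 change 4.6 ± 0.34 SE, adjusted p = 5.86e-07). AT5G62360, which encodes an inhibitor of the invertase and pectin methylesterase inhibitor family, rose from 1.005 ± 0.232 to 30.1 ± 6.39 CPM (mean ± SD, n = 3). That the groups did not overlap was part of the choice of these genes and is no result.

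Among genes at 1 CPM or more at 30 min, the largest fitted falls were in genes of wall loosening, light and sulfate assimilation. XTH31 (AT3G44990), of the xyloglucan endotransglucosylase family, stood at 44.2, 40.5 and 45.9 CPM before wounding and 0.627, 1.75 and 1.89 CPM at 30 min (log2 change -4.87 ± 0.31 SE, adjusted p = 1.96e-07). EXPB1 (AT2G20750), a beta-expansin, stood at 26.1, 34.3 and 28.9 CPM before wounding and 1.39, 1.84 and 2.83 CPM at 30 min (log2 change -3.84 ± 0.26 SE, adjusted p = 3.11e-07). BBX18 (AT2G21320), a B-box factor of light signalling, stood at 16.9, 16.8 and 16.01 CPM before wounding and 0.487, 1.55 and 1.03 CPM at 30 min (log2 change -3.97 ± 0.33 SE, adjusted p = 1.87e-06). In all of them the wounded leaves were far below the unwounded ones. AT2G27420, a cysteine proteinase gene, fell from 16.6 ± 3.09 to 1.33 ± 0.643 CPM (mean ± SD, n = 3), and AT1G60590, of the pectin lyase-like family, fell from 15.3 ± 1.45 to 1.77 ± 0.949 CPM (mean ± SD, n = 3). These genes too were chosen among those without overlap, which held for 43.4% of all tested genes.

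**Figure D2:**
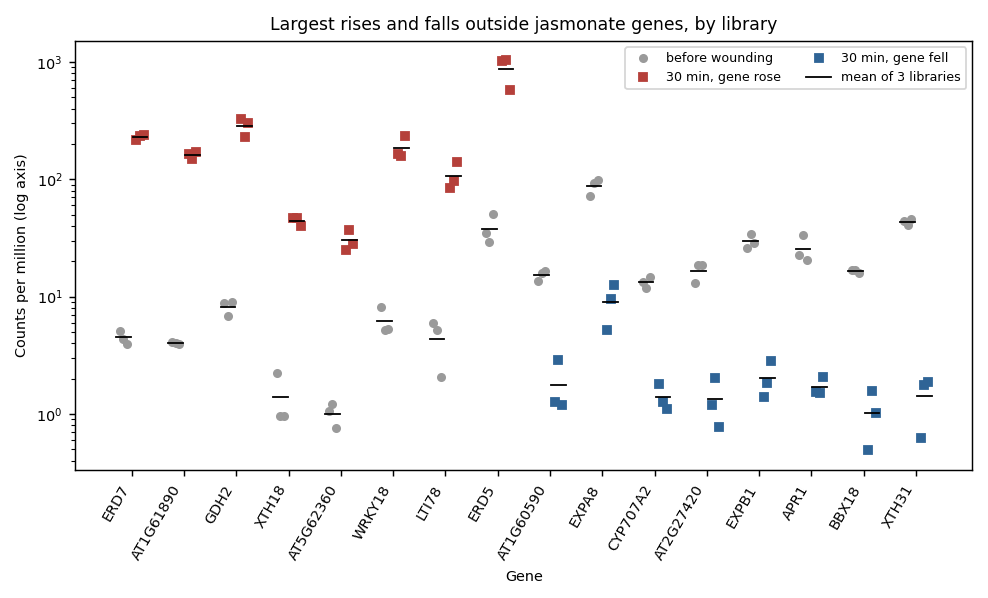
CPM (log axis) of the 8 largest rises and the 8 largest falls among genes outside the jasmonate list with a mean of at least 1 CPM in the lower group and no overlap between groups, 1 point a library, grey circles before wounding, red and blue squares at 30 min, and a line for the mean of 3 libraries. The choice of the 16 genes sets the 2 groups apart, and the points show by how much, ERD7 at 216 to 237 CPM against 3.96 to 5.13 and XTH31 at 0.627 to 1.89 against 40.5 to 45.9.

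Some of the receptors, calcium sensors and kinases of the danger response rose. In the list of pattern and danger perception, 16 of 28 tested members were called higher (57.1%) and 0 lower, and the median log2 change was 0.94. This list, like the others, was chosen with earlier results of these data known. Beside it, 14.5% of all tested genes were called higher and 13.4% lower. By product name, 19 of 125 tested leucine-rich repeat receptor kinase genes were called higher and 19 lower (15.2% each). No member of the perception list was lower at an unadjusted p under 0.05 in edgeR or by DESeq2. Without replicate 2 from before wounding 10 of its members were called higher. PEPR1 (AT1G73080), the receptor of Pep peptides that damaged cells release, stood at 17.8, 14.98 and 16.8 CPM before wounding and 54.4, 63.5 and 59.1 CPM at 30 min (log2 change 1.84 ± 0.19 SE, adjusted p = 1.09e-05). Its co-receptor BAK1 (AT4G33430) stood at 22.01, 21.3 and 18.4 CPM before wounding and 41.8, 41.5 and 41.7 CPM at 30 min (log2 change 1.02 ± 0.14 SE, adjusted p = 0.000109). Each library from 30 min thus held about the same level of BAK1. The related BKK1 (AT2G13790) rose from 8.68 ± 2.67 to 29.6 ± 7.31 CPM (mean ± SD, n = 3) and BIR1 (AT5G48380), a BAK1-interacting receptor kinase, from 9.67 ± 2.25 to 30.8 ± 4.79 CPM (mean ± SD, n = 3). PUB13 (AT3G46510), a ubiquitin ligase of the same pathway and the most highly counted member, stood at 47.3, 53.1 and 56 CPM before wounding and 58, 72.3 and 54.1 CPM at 30 min and was not called, except with library size alone as scaling.

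In the chosen list of calcium signalling genes 14 of 27 tested members were called higher (51.85%) and 5 lower (18.5%). The median log2 change was 0.63. By product name, 10 of 35 tested EF-hand and calmodulin-like genes were called higher (28.6%) and 1 lower (2.86%), with a median of 0.39. The shares among all tested genes were 14.5% and 13.4%. CML12 (AT2G41100), a calmodulin-like protein also known as TCH3 from its response to touch, stood at 119, 56.1 and 77.3 CPM before wounding and 533, 676 and 473 CPM at 30 min (log2 change 2.73 ± 0.30 SE, adjusted p = 2.04e-05). The plasma membrane channel CNGC2 (AT5G15410) stood at 67.4, 82.8 and 91.6 CPM before wounding and 241, 259 and 210.1 CPM at 30 min (log2 change 1.55 ± 0.15 SE, adjusted p = 8.13e-06). CPK28 (AT5G66210), a calcium-dependent kinase that limits immune signalling, rose from 15.2 ± 2.4 to 69.2 ± 9.32 CPM (mean ± SD, n = 3), and AT3G10300, which encodes a calcium-binding EF-hand protein, from 2.09 ± 0.819 to 37.5 ± 3.03 CPM (mean ± SD, n = 3). CML37 (AT5G42380), another calmodulin-like gene, had no count before wounding and stood at 4.11, 3.93 and 2.79 CPM at 30 min, at least 25.4-fold higher than a floor of 3 counts a library. Of the MAP kinase genes 11 of 26 tested members were called higher and 1 lower, and the median log2 change was 0.7. MPK3 (AT3G45640), a kinase activated by wounding and by pathogens, stood at 64.1, 59.2 and 62.03 CPM before wounding and 113.5, 142 and 117 CPM at 30 min (log2 change 1.01 ± 0.16 SE, adjusted p = 0.000410). MEKK1 (AT4G08500), at the head of a cascade, rose from 13.3 ± 1.57 to 29.5 ± 4.297 CPM (mean ± SD, n = 3). MAPKKK3 (AT1G53570) rose from 34.6 ± 0.281 to 68.2 ± 8.72 CPM (mean ± SD, n = 3). MPK17 (AT2G01450) rose with a wide spread among wounded leaves, from 64.5 ± 17.1 to 212 ± 101.0 CPM (mean ± SD, n = 3). Scaling to library size alone called 15 MAP kinase genes higher.

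Transcription factor genes of the stress families held some of the largest changes. In a chosen list of ethylene response factors, 18 of 31 tested members were called higher and 0 lower, and the median log2 change was 1.74. No member of this list was lower at an unadjusted p under 0.05 or by DESeq2. Of 58 tested AP2/ERF genes taken by product name, 19 were called higher (32.8%) and 5 lower (8.62%), with a median of 0.50. Of all tested genes 14.5% were called higher and 13.4% lower. RRTF1 (AT4G34410), a regulator of redox stress, had 2, 0 and 2 counts before wounding and 520, 1063 and 901 counts at 30 min, at least 292-fold higher than the floor. DDF1 (AT1G12610), a relative of the CBF cold factors, stood at 0.526, 0 and 0.0502 CPM before wounding and 28.96, 38.6 and 31.6 CPM at 30 min (log2 change 7.31 ± 0.57 SE, adjusted p = 1.02e-06). Replicate 1 held most of its counts before wounding, and without that library the log2 change was 10.09. ERF1A (AT4G17500), an activator of defence genes, stood at 7.85, 5.85 and 6.78 CPM before wounding and 72.05, 77.1 and 72.3 CPM at 30 min (log2 change 3.43 ± 0.23 SE, adjusted p = 2.79e-07). RAP2.6 (AT1G43160) had 1, 0 and 0 counts before wounding and 122, 148 and 222 counts at 30 min, at least 58.0-fold higher than the floor. RAP2.3 (AT3G16770), the most highly counted member, stood at 91.8, 121 and 137 CPM before wounding and 99.97, 131 and 95.8 CPM at 30 min and was not called.

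Among the WRKY factors 14 of 28 tested members were called higher and 3 lower, and the median log2 change was 0.53, and besides WRKY18 the related WRKY40 (AT1G80840) stood at 8.24, 3.14 and 4.42 CPM before wounding and 37.7, 33.3 and 48.7 CPM at 30 min (log2 change 2.92 ± 0.32 SE, adjusted p = 2.08e-05). WRKY48 (AT5G49520) rose from 0.757 ± 0.719 to 30.2 ± 2.81 CPM (mean ± SD, n = 3), a log2 change of 5.27 that became 6.43 without replicate 1 from before wounding. WRKY25 (AT2G30250) rose from 3.42 ± 0.402 to 12.8 ± 0.473 CPM (mean ± SD, n = 3). Without replicate 3 from before wounding, 8 WRKY genes of the list were called higher. Of 40 tested WRKY genes taken by product name, 15 were called higher (37.5%) and 4 lower (10%). In the list of stress NAC and MYB factors 14 of 21 tested members were called higher and 3 lower, and the median log2 change was 1.54. By product name, 7 of 35 tested NAC genes were called higher (20%) and 1 lower (2.86%). Of 47 tested MYB genes so named, 10 were called higher (21.3%) and 13 lower (27.7%), with a median of -0.14. Of all tested genes 14.5% were called higher and 13.4% lower. ANAC055 (AT3G15500) stood at 1.18, 0.483 and 0.753 CPM before wounding and 20.9, 16.5 and 20.8 CPM at 30 min (log2 change 4.56 ± 0.34 SE, adjusted p = 6.27e-07), and RD26 (AT4G27410), a NAC factor of dehydration and senescence, rose from 28.5 ± 1.51 to 82.5 ± 8.01 CPM (mean ± SD, n = 3). MYB15 (AT3G23250) had 1, 1 and 0 counts before wounding and 73, 67 and 108 counts at 30 min, at least 29.9-fold higher than the floor. MYB44 (AT5G67300) rose from 172 ± 19.3 to 360.4 ± 92 CPM (mean ± SD, n = 3), while MYB77 (AT3G50060), a factor that promotes auxin responses and a close relative of MYB44, stood at 86.8, 72.8 and 87.6 CPM before wounding and 22.6, 20.8 and 27.8 CPM at 30 min (log2 change -1.79 ± 0.18 SE, adjusted p = 8.07e-06). Among C2H2 zinc finger repressors 6 of 11 tested members were called higher and 2 lower, and the median log2 change was 1.61. ZAT6 (AT5G04340) rose from 2.99 ± 2.18 to 17.6 ± 2.96 CPM (mean ± SD, n = 3). AZF2 (AT3G19580) rose from 1.84 ± 0.256 to 7.63 ± 1.64 CPM (mean ± SD, n = 3), whereas AT2G28200 fell from 8.53 ± 1.6 to 2.35 ± 0.58 CPM (mean ± SD, n = 3). ZAT10 (AT1G27730) rose as well, with a wide spread before wounding (23.4, 3.38 and 15.2 CPM before wounding and 55.6, 44.6 and 53.8 CPM at 30 min, adjusted p = 0.0156). Without replicate 1 from before wounding the log2 change was 2.47 in place of 1.87 for ZAT10 and 3.2 in place of 2.54 for ZAT6.

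Some short promoter elements stood at different shares among rising and falling genes. The 250 bases before the RefSeq gene start, read on both strands, were searched for short elements in 17610 tested genes. CGCGTT, the core of the rapid stress response element that binds calmodulin-regulated factors, was present in 2.84% of all tested promoters, in 5.66% of those called higher, in 7.74% of those higher by at least 4-fold and in 1.65% of those called lower. GCCGAC, the dehydration-responsive element core that CBF-type factors bind, was present in 2.91%, 4.69%, 6.69% and 2.53% of the same sets. CACGTG, the G box, was present in 7.48% of all promoters and 14.9% of those higher by at least 4-fold. The W box of WRKY factors, TTGACC or TTGACT, changed less between sets, with 27.6% of all and 31.4% of those higher by at least 4-fold, and GCCGCC, the GCC box of ethylene response factors, stood at 1.95% and 2.72%. The evening element core AATATCT stood at 10.3% of all, 12.0% of those called higher and 10.7% of those called lower. TGGGCC, a site of TCP factors, was present in 17.5% of all promoters, 12.5% of those called higher and 18.6% of those called lower, but in 8.37% of those higher and 6.03% of those lower by at least 4-fold. These shares are descriptions, a match is not a bound site, and promoters of related genes are not independent.

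The windows of 3 rising genes, those with the smallest p among the genes named by rule and with CGCGTT, show where the letters sit. The windows are from the TAIR10.1 assembly of RefSeq, 5′ to 3′ towards the gene, with the match or its reverse complement in capitals. They lie at chr2:17268908-17269157 on the plus strand for ERD15, at chr4:14827212-14827461 on the minus strand for XTH18 and at chr2:17844381-17844630 on the minus strand for MPK20.
ERD15: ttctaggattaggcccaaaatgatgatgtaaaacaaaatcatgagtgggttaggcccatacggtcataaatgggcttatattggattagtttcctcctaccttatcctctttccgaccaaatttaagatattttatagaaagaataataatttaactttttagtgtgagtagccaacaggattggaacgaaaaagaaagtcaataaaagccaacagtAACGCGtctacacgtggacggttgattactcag
XTH18: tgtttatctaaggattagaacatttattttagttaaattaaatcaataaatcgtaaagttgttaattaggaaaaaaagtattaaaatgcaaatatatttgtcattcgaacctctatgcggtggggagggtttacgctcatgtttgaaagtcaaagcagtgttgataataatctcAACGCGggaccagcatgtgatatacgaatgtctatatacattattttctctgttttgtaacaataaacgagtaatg
MPK20: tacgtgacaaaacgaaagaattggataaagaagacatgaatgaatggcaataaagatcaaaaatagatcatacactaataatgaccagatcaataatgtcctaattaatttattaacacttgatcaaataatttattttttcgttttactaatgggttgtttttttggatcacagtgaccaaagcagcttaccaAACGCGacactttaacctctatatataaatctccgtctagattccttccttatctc
Each holds 1 match, on the strand opposite to the gene, and its outermost base lies 33 bases before the start of ERD15, 76 before XTH18 and 56 before MPK20. ERD15 (AT2G41430), a dehydration-induced gene, stood at 494, 394 and 429.8 CPM before wounding and 1503, 1733 and 1272 CPM at 30 min (log2 change 1.77 ± 0.19 SE, adjusted p = 1.44e-05). XTH18 (AT4G30280), a wall enzyme gene, stood at 2.24, 0.967 and 0.954 CPM before wounding and 46.4, 46.9 and 39.7 CPM at 30 min (log2 change 4.98 ± 0.57 SE, adjusted p = 2.93e-05). MPK20 (AT2G42880), a MAP kinase gene, stood at 71.1, 65.1 and 59.4 CPM before wounding and 149.8, 118 and 146 CPM at 30 min (log2 change 1.08 ± 0.14 SE, adjusted p = 6.36e-05). All 3 were higher in every wounded leaf than in any unwounded leaf, but they were chosen by smallest p. Groups did not overlap in 43.4% of all tested genes.

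**Figure D3:**
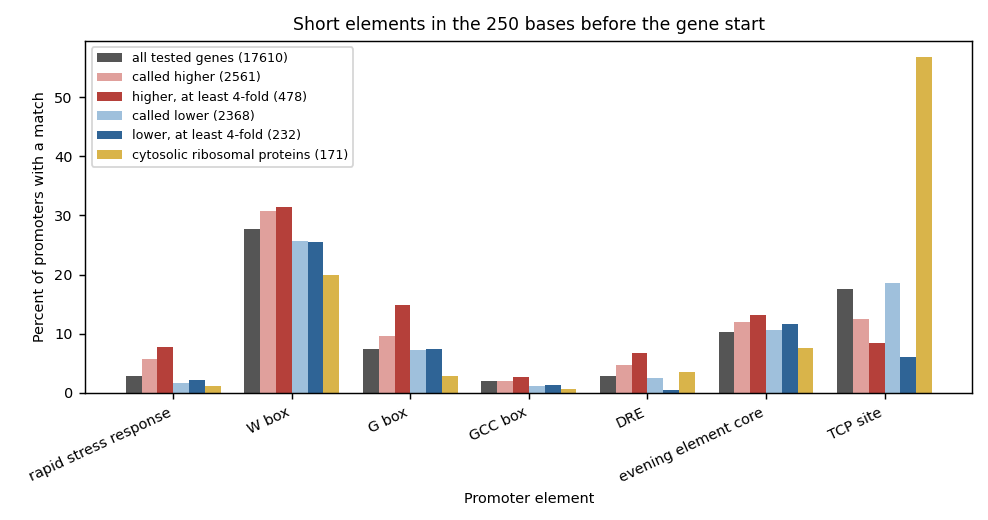
Percent of promoters (250 bases before the gene start) with at least 1 match to each element, for all tested genes, genes called higher or lower, those with at least 4-fold changes and cytosolic ribosomal protein genes, with the number of promoters in brackets. The rapid stress response, G box and dehydration-responsive (DRE) bars rise from all genes to those higher by at least 4-fold, and the TCP bar of ribosomal protein genes reaches 56.7%.

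Genes of membrane traffic rose in part. Among genes that the RefSeq notes place in vesicle-mediated transport, 23 of 75 tested genes were called higher and 0 lower, and the median log2 change was 0.31. That is 30.7% called higher, against 14.5% of all tested genes. No such gene was lower at an unadjusted p under 0.05 in edgeR or by DESeq2. Fewer were called higher without 1 library, 13 without replicate 2 or replicate 3 from before wounding and 15 without replicate 1 or replicate 3 at 30 min. SNAP33 (AT5G61210), which joins syntaxins at the plasma membrane during secretion, stood at 20.3, 21.3 and 19.5 CPM before wounding and 45.7, 51.3 and 41.1 CPM at 30 min (log2 change 1.18 ± 0.19 SE, adjusted p = 0.000506). The Golgi SNARE gene MEMB11 (AT2G36900) rose from 9.26 ± 0.438 to 23.03 ± 0.756 CPM (mean ± SD, n = 3). The endosomal syntaxins SYP51 (AT1G16240) and SYP52 (AT1G79590) rose from 34.5 ± 1.29 to 61.2 ± 6.22 CPM (mean ± SD, n = 3) and from 17.99 ± 1.44 to 35.4 ± 5.04 CPM (mean ± SD, n = 3). Of 2 clathrin light chain genes, AT3G51890 rose from 3.14 ± 1.35 to 12.8 ± 0.651 CPM (mean ± SD, n = 3), and CLC2 (AT2G40060) stood at 99.4, 112 and 107.7 CPM before wounding and 97, 119 and 120.0 CPM at 30 min and was not called. Of the small GTPase genes, 20 of 45 tested genes were called higher and 2 lower, and the median log2 change was 0.45. RABA1f (AT5G60860), a Rab of the trans-Golgi network, stood at 10.09, 10.97 and 8.43 CPM before wounding and 44.5, 38.8 and 35.4 CPM at 30 min (log2 change 2.01 ± 0.17 SE, adjusted p = 1.92e-06). RABG3B (AT1G22740) rose from 8.79 ± 1.49 to 27.8 ± 2.28 CPM (mean ± SD, n = 3). RAB7B (AT3G18820) rose from 33.5 ± 2.399 to 68.6 ± 2.64 CPM (mean ± SD, n = 3). RAB8C (AT5G03520) rose from 51.7 ± 3.72 to 114.9 ± 11.6 CPM (mean ± SD, n = 3). The genes named from RefSeq notes were picked from those with the smallest p or the highest level, and some of these were left out.

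Of the genes noted for protein ubiquitination, 16 of 54 tested genes were called higher (29.6%) and 5 lower (9.26%), and the median log2 change was 0.36. The shares among all tested genes were 14.5% and 13.4%. By product name, 65 of 363 tested U-box and RING ubiquitin ligase genes were called higher (17.9%) and 37 lower (10.2%). Their median log2 change was 0.18. The U-box ligase gene PUB18 (AT1G10560) rose from 0.435 ± 0.322 to 7.07 ± 1.15 CPM (mean ± SD, n = 3). PUB45 (AT1G27910) rose from 16.6 ± 0.764 to 41.9 ± 5.21 CPM (mean ± SD, n = 3). AT1G24330 rose from 4.16 ± 0.181 to 21.96 ± 1.6 CPM (mean ± SD, n = 3), while AT3G49810, of the same ARM repeat family, fell from 16.6 ± 1.49 to 6.1 ± 0.625 CPM (mean ± SD, n = 3). Without replicate 3 from before wounding, 10 of the 54 genes were called higher. Without replicate 2 from before wounding the log2 change of PUB18 was 4.73 in place of 4.02. The most highly counted of the 54 genes, whose product is annotated as a ubiquitin extension protein, fell from 265 ± 36.5 to 175 ± 19.9 CPM (mean ± SD, n = 3). Its call was lost in 4 of 6 fits that left out 1 library. None of 34 proteasome subunit genes was called in either direction by edgeR or DESeq2, and none had an unadjusted p under 0.05. In the list of mRNA decay and CCCH factors 2 of 16 tested members were called higher (12.5%) and 1 lower (6.25%). CAF1B (AT5G22250), a deadenylase that shortens poly(A) tails, stood at 1.096, 1.16 and 1.05 CPM before wounding and 4.11, 4.71 and 3.98 CPM at 30 min (log2 change 1.95 ± 0.30 SE, adjusted p = 0.000314).

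Most genes for cytosolic ribosomal proteins fell. Of 171 tested genes whose product is a ribosomal protein that the RefSeq notes place in the cytosolic ribosome, 134 (78.4%) were called lower against 13.4% of all tested genes, and the log2 change was below 0 in 170. None was called higher by edgeR or DESeq2 and none was higher at an unadjusted p under 0.05. The median log2 change was -0.73. With library size alone as scaling 123 were called lower with a median of -0.62, and the fits that left out 1 library gave 91 to 135. AT3G28900, of the L34e family, stood at 57.2, 58.5 and 70.01 CPM before wounding and 28.8, 20.5 and 21.2 CPM at 30 min (log2 change -1.4 ± 0.17 SE, adjusted p = 3.65e-05). AT1G70600, of the L18e/L15 family, stood at 137, 124 and 151 CPM before wounding and 63.1, 49.03 and 43.4 CPM at 30 min (log2 change -1.41 ± 0.18 SE, adjusted p = 7.08e-05). AT3G09200, of the L10 family and the most highly counted of the group, stood at 573, 739.9 and 854 CPM before wounding and 422, 324 and 289 CPM at 30 min (log2 change -1.07 ± 0.22 SE, adjusted p = 0.00228). In all 3, every wounded leaf was below every unwounded leaf, but they were chosen by smallest p or most counts. No overlap was found in 43.4% of all tested genes.

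Of the ribosomal proteins placed in the plastid, 8 of 46 were called lower (17.4%) and 1 higher (2.17%), with a median log2 change of -0.28. The share called lower was near the 13.4% of all tested genes, of which 14.5% were called higher. The log2 change was below 0 in 38 of the 46. The difference between cytosolic and plastid ribosomal proteins was not tested. Among 9 tested mitochondrial ribosomal proteins 3 were called lower and 0 higher. Their median log2 change was -0.66, with 8 below 0. Without replicate 2 from before wounding 5 of the plastid group were called lower, and without replicate 3 of either group 4. Genes noted for ribosome biogenesis, which overlap the ribosomal proteins, were called lower in 65 of 98 cases and higher in 0, with 1 higher at an unadjusted p under 0.05 and 0 by DESeq2. Without replicate 3 from before wounding 39 of these were called lower, and without replicate 3 at 30 min 42. Of 357 tested genes noted for translation, which include ribosomal proteins, 185 were called lower and 6 higher. A pair of the 6 are described. AT5G54940, a translation initiation factor of the SUI1 family, stood at 119, 132 and 138 CPM before wounding and 286, 345 and 274 CPM at 30 min (log2 change 1.22 ± 0.18 SE, adjusted p = 0.000239), and AT5G24490, annotated as a 30S ribosomal protein, rose from 175 ± 11.2 to 330.2 ± 21.7 CPM (mean ± SD, n = 3).

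The TCP site TGGGCC was present in 97 of 171 promoters of the cytosolic ribosomal protein genes (56.7%), against 17.5% of all tested promoters. The windows of the pair of falling genes with the smallest p and a match are shown in the same way, at chr2:13640432-13640681 on the minus strand for AT2G32060 and at chr5:24610782-24611031 on the plus strand for AT5G61170.
AT2G32060: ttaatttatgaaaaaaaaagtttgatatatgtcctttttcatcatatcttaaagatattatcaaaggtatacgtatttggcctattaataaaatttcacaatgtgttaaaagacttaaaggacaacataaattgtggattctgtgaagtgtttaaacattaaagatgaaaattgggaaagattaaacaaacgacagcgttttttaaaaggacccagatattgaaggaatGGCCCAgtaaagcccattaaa
AT5G61170: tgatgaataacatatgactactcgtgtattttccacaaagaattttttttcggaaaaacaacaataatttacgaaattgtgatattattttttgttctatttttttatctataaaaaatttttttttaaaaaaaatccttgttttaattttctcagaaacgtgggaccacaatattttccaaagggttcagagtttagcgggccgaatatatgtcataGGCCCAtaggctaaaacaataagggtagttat
Both hold the reverse complement, at 21 bases before the start of AT2G32060 and at 32 bases before that of AT5G61170. AT2G32060, of the L7Ae/L30e/S12e family, fell from 81.6 ± 8.41 to 35.1 ± 6.53 CPM (mean ± SD, n = 3), and AT5G61170, of the S19e family, fell from 123 ± 23.2 to 51.7 ± 11.1 CPM (mean ± SD, n = 3).

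**Figure D4:**
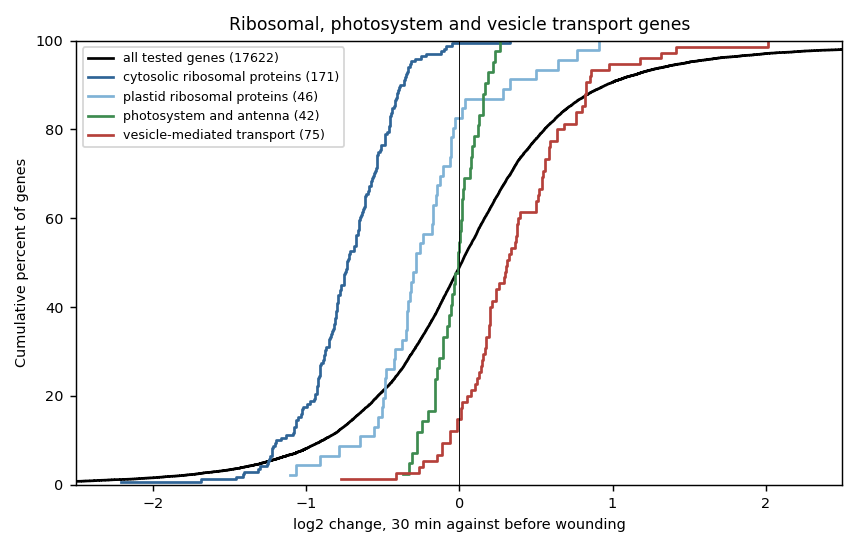
Cumulative percent of genes (vertical axis) by log2 change at 30 min (horizontal axis) for all tested genes, cytosolic and plastid ribosomal proteins, photosystem and antenna genes and genes of vesicle-mediated transport, with the number of genes in brackets. The curve of cytosolic ribosomal proteins lies left of all genes (median -0.73), that of vesicle transport right (median 0.31), and photosystem genes rise steeply at 0.

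Many genes that leaves turn on in the dark or when sugar runs out rose. In their list, 13 of 22 tested members were called higher and 2 lower, and the median log2 change was 1.92. DIN1 (AT4G35770), a marker of darkness and senescence, stood at 32.5, 30.9 and 47.5 CPM before wounding and 419, 412 and 379.7 CPM at 30 min (log2 change 3.45 ± 0.23 SE, adjusted p = 3.11e-07). ASN1 (AT3G47340), the asparagine synthetase that stores nitrogen when carbon is short, stood at 50.2, 59.3 and 58.2 CPM before wounding and 806, 824 and 859.5 CPM at 30 min (log2 change 3.89 ± 0.23 SE, adjusted p = 1.05e-07). DRM2 (AT2G33830), of a family linked to dormancy, rose from 30.7 ± 1.86 to 297 ± 63.4 CPM (mean ± SD, n = 3). BCAT2 (AT1G10070), which starts the breakdown of branched-chain amino acids, stood at 0.263, 0.242 and 0.552 CPM before wounding and 40.4, 19.2 and 33.6 CPM at 30 min (log2 change 6.45 ± 0.42 SE, adjusted p = 2.56e-07). DIN10 (AT5G20250) and SIP2 (AT3G57520), of the raffinose synthase and galactosidase family, were among the 5 genes with the largest gain of mean CPM outside the jasmonate genes. DIN10 stood at 342, 403 and 525 CPM before wounding and 1736, 1755 and 1339.9 CPM at 30 min, and SIP2 at 131, 86.6 and 116 CPM before wounding and 1369.6, 1053 and 1034 CPM at 30 min. Each of these 6 genes was higher in every wounded leaf than in any unwounded one. They were chosen by smallest p, most counts or largest gain, which favours separate groups. Of all tested genes 43.4% had no overlap between groups.

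Genes for enzymes that oxidise proline and glutamate rose as well. ERD5 (AT3G30775), the proline dehydrogenase of mitochondria, stood at 34.8, 29.2 and 50.1 CPM before wounding and 1019, 1036 and 581 CPM at 30 min (log2 change 4.53 ± 0.32 SE, adjusted p = 5.17e-07), with replicate 3 lower than the other wounded leaves. Its paralogue AT5G38710 rose from 0.278 ± 0.21 to 2.98 ± 0.572 CPM (mean ± SD, n = 3), and P5CDH (AT5G62530), the next enzyme of proline breakdown, from 6.18 ± 1.55 to 13.8 ± 2.48 CPM (mean ± SD, n = 3). GDH2 (AT5G07440), a subunit of glutamate dehydrogenase, stood at 8.9, 6.77 and 8.93 CPM before wounding and 325, 231 and 299.7 CPM at 30 min (log2 change 5.12 ± 0.25 SE, adjusted p = 1.44e-08). ADC2 (AT4G34710), the arginine decarboxylase of polyamine synthesis, rose from 94.1 ± 24.4 to 229.9 ± 47.7 CPM (mean ± SD, n = 3). Over the whole list of arginine, polyamine and proline metabolism 4 of 19 tested members were called higher (21.05%) and 3 lower (15.8%). Its median log2 change was -0.04. With library size alone 1 was called lower and the median was 0.05. In nitrate and ammonium assimilation, 5 of 21 tested members were called higher (23.8%) and 6 lower (28.6%), and the median log2 change was -0.15. The shares among all tested genes were 14.5% and 13.4%. Without replicate 3 from before wounding 2 members of the nitrate and ammonium list were called higher. GLN1.2 (AT1G66200), a cytosolic glutamine synthetase, fell from 261 ± 21.1 to 119 ± 18.3 CPM (mean ± SD, n = 3), the nitrate transporter NRT1.5 (AT1G32450) from 10.5 ± 3.02 to 2.53 ± 0.766 CPM (mean ± SD, n = 3) and UPM1 (AT5G40850), a methyltransferase of sirohaem synthesis, from 176 ± 22.6 to 90.9 ± 15.5 CPM (mean ± SD, n = 3), while plastid GLN2 (AT5G35630) stood at 807, 1074 and 1065 CPM before wounding and 1096, 1149.5 and 805 CPM at 30 min and was not called.

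Some genes of sugar carriers and invertases rose and a sucrose synthesis gene fell. In their list 11 of 21 tested members were called higher and 4 lower, and the median log2 change was 0.78. STP1 (AT1G11260), the plasma membrane hexose carrier, stood at 89.4, 98.6 and 101.2 CPM before wounding and 531, 723 and 479 CPM at 30 min (log2 change 2.58 ± 0.24 SE, adjusted p = 5.90e-06). ERDL6 (AT1G75220), which exports glucose from the vacuole, rose from 39.4 ± 6.17 to 121 ± 18.1 CPM (mean ± SD, n = 3), and CWINV1 (AT3G13790), an invertase of the cell wall, from 2.21 ± 0.51 to 11.2 ± 1.78 CPM (mean ± SD, n = 3). SPS4F (AT4G10120), a sucrose phosphate synthase, stood at 129, 127 and 136 CPM before wounding and 32.4, 38.7 and 30.8 CPM at 30 min (log2 change -1.94 ± 0.14 SE, adjusted p = 4.80e-07). The groups did not overlap in any of these genes, which were chosen by smallest p or most counts. Overlap was also absent in 43.4% of all tested genes.

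The pathways of defence metabolites went in different directions. Indole and aliphatic glucosinolates are sulfur-containing defence compounds of the cabbage family made from tryptophan and methionine. In indole glucosinolate synthesis 8 of 17 tested members were called higher and 2 lower, and the median log2 change was 0.77. CYP79B2 (AT4G39950) and CYP79B3 (AT2G22330), which convert tryptophan to its oxime, rose from 3.11 ± 0.534 to 15.3 ± 6.85 CPM (mean ± SD, n = 3) and from 14.3 ± 2.56 to 40.3 ± 13.9 CPM (mean ± SD, n = 3). Their regulator MYB34 (AT5G60890) stood at 7.02, 9.18 and 8.38 CPM before wounding and 21.2, 31.9 and 35.6 CPM at 30 min (log2 change 1.86 ± 0.28 SE, adjusted p = 0.000282). In tryptophan synthesis 2 of 11 tested members were called higher (18.2%) and 0 lower, and the median log2 change was 0.27. The share higher was near the 14.5% of all tested genes. ASA1 (AT5G05730), the first enzyme of the branch, stood at 13.2, 15.6 and 11.6 CPM before wounding and 35.4, 37.4 and 38.1 CPM at 30 min (log2 change 1.46 ± 0.16 SE, adjusted p = 2.07e-05). In aliphatic glucosinolate synthesis 0 of 20 tested members were called higher and 12 lower, and the median log2 change was -1.25. CYP79F1 (AT1G16410), which acts at the same step on chain-elongated methionine, stood at 18.1, 22.8 and 18.2 CPM before wounding and 2.71, 3.88 and 5.5 CPM at 30 min (log2 change -2.27 ± 0.29 SE, adjusted p = 6.16e-05). CYP83A1 (AT4G13770), the next enzyme, fell from 58.3 ± 11.9 to 14.6 ± 4.38 CPM (mean ± SD, n = 3), and IMD1 (AT5G14200), of methionine chain elongation, from 56.2 ± 12.7 to 18.9 ± 2.81 CPM (mean ± SD, n = 3). GSTU20 (AT1G78370) fell from 68.7 ± 9.88 to 26.4 ± 8.4 CPM (mean ± SD, n = 3). GSTF9 (AT2G30860), in the indole list, fell by 0.51 on the log2 scale (adjusted p = 0.0263), a call lost in 4 of 6 fits that left out 1 library and with library size alone, and its neighbour GSTF10 (AT2G30870) rose from 55.3 ± 2.72 to 139 ± 7.02 CPM (mean ± SD, n = 3).

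Most tested genes of phenolic synthesis fell. In phenylpropanoid and monolignol synthesis, which feeds lignin and flavonoids, 1 of 27 tested members was called higher and 17 lower, and the median log2 change was -0.77. PAL1 (AT2G37040), the entry enzyme, stood at 170.1, 192 and 230.1 CPM before wounding and 51.2, 56 and 41.3 CPM at 30 min (log2 change -2.0 ± 0.17 SE, adjusted p = 2.58e-06). CAD4 (AT3G19450), which makes lignin alcohols, stood at 222, 241 and 266 CPM before wounding and 80.4, 93.2 and 63.3 CPM at 30 min (log2 change -1.62 ± 0.17 SE, adjusted p = 1.50e-05). PAL3 (AT5G04230) fell from 24.9 ± 4.8 to 8.8 ± 1.31 CPM (mean ± SD, n = 3). FAH1 (AT4G36220) fell from 121.9 ± 13.8 to 45.2 ± 9.1 CPM (mean ± SD, n = 3). HCT (AT5G48930) fell from 368 ± 34.9 to 186 ± 58.2 CPM (mean ± SD, n = 3). In flavonoid and anthocyanin synthesis 0 of 15 tested members were called higher and 11 lower, and the median log2 change was -1.39. CHS (AT5G13930), chalcone synthase at the start of the branch, stood at 261, 369 and 342 CPM before wounding and 43.3, 57.8 and 37.8 CPM at 30 min (log2 change -2.81 ± 0.18 SE, adjusted p = 2.63e-07). CHIL (AT5G05270) fell from 15.6 ± 2.34 to 5.77 ± 0.733 CPM (mean ± SD, n = 3). F3H (AT3G51240) fell from 20.06 ± 1.37 to 7.65 ± 1.03 CPM (mean ± SD, n = 3). FLS1 (AT5G08640) fell from 9.67 ± 0.978 to 3.72 ± 1.11 CPM (mean ± SD, n = 3). No member of the flavonoid or the aliphatic glucosinolate list was higher at an unadjusted p under 0.05 in edgeR or by DESeq2.

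In the list of sulfur status, genes that respond to sulfate supply, 2 of 17 tested members were called higher and 8 lower, and the median log2 change was -1.25. APR1 (AT4G04610), a reductase of sulfate assimilation, stood at 22.5, 33.8 and 20.5 CPM before wounding and 1.53, 1.505 and 2.05 CPM at 30 min (log2 change -3.9 ± 0.26 SE, adjusted p = 2.73e-07). APR2 (AT1G62180) stood at 103.5, 120.3 and 87.3 CPM before wounding and 24.99, 28.5 and 19.1 CPM at 30 min (log2 change -2.1 ± 0.18 SE, adjusted p = 2.13e-06). APR3 (AT4G21990) fell from 45.5 ± 12.04 to 5.73 ± 1.77 CPM (mean ± SD, n = 3), and SERAT2;1 (AT1G55920), of cysteine synthesis, from 25.8 ± 1.16 to 8.17 ± 1.49 CPM (mean ± SD, n = 3). All 3 reductase genes were thus called lower. APS1 (AT3G22890) fell by 0.47 on the log2 scale (adjusted p = 0.0269), a call lost in 4 of 6 fits that left out 1 library.

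**Figure D5:**
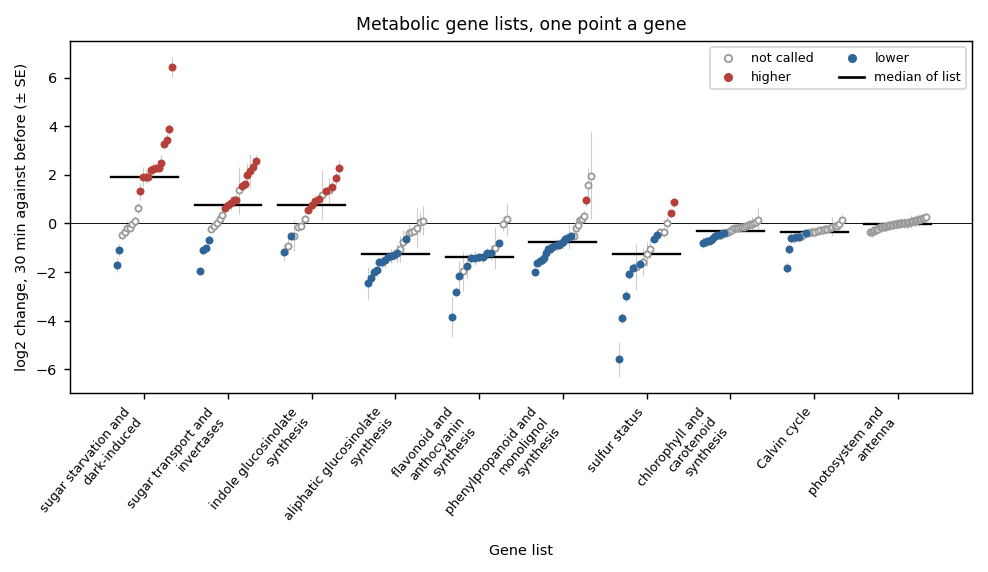
Log2 change at 30 min with its SE, 1 point a tested gene, for 10 metabolic gene lists, filled red where called higher, filled blue where called lower and open where not called, with a line for the median. The lists run from a median of 1.92 for starvation genes over -1.25 for aliphatic glucosinolates and -1.39 for flavonoids to -0.01 for photosystem genes, all open.

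None of the 42 tested photosystem and antenna genes was called in either direction by edgeR or DESeq2 or had an unadjusted p under 0.05. Their median log2 change was -0.01. LHCB1.3 (AT1G29930), an antenna protein of photosystem II, stood at 48860.1, 67657 and 67408 CPM before wounding and 54789, 58726 and 51412 CPM at 30 min. In the Calvin cycle 0 of 24 tested members were called higher and 6 lower, and the median log2 change was -0.36. Without replicate 2 or 3 from before wounding or replicate 3 at 30 min, 2 were called lower. RBCS1B (AT5G38430), a small subunit of Rubisco, stood at 1951, 2283 and 2835 CPM before wounding and 834, 658 and 508 CPM at 30 min (log2 change -1.82 ± 0.22 SE, adjusted p = 5.07e-05), and its paralogue RBCS1A (AT1G67090) at 70269.7, 77900.4 and 84434 CPM before wounding and 68274, 65244 and 48784 CPM at 30 min, which was not called. FBA1 (AT2G21330), a plastid aldolase, stood at 3843, 3774 and 3922 CPM before wounding and 1927, 2103 and 1472 CPM at 30 min (log2 change -1.07 ± 0.17 SE, adjusted p = 0.000414), and FBA5 (AT4G26530), an aldolase outside the list, fell from 2386 ± 324 to 1335 ± 335 CPM (mean ± SD, n = 3). TKL1 (AT3G60750) and FBA3 (AT2G01140) fell by 0.57 and 0.40 on the log2 scale, calls lost in 3 and 4 of the 6 fits that left out 1 library. GAPA (AT3G26650) fell by 0.60, a call lost in 5 of these fits and with a block by replicate number. The call of FBA3 was also lost with library size alone, with no filter on low counts and in the fit to the 6 libraries. In chlorophyll and carotenoid synthesis 0 of 29 tested members were called higher and 10 lower, and the median log2 change was -0.3. Without replicate 3 at 30 min 2 of them were called lower, without replicate 3 from before wounding or replicate 1 at 30 min 5, and without replicate 2 from before wounding 6. HEMA1 (AT1G58290), which controls entry to tetrapyrrole synthesis, stood at 1200.3, 1436 and 1405 CPM before wounding and 718, 917 and 756 CPM at 30 min (log2 change -0.76 ± 0.16 SE, adjusted p = 0.00338). CAO (AT1G44446), which makes chlorophyll b, fell from 501 ± 10.7 to 305 ± 15.7 CPM (mean ± SD, n = 3), and GUN5 (AT5G13630), a subunit of magnesium chelatase, from 3105 ± 359 to 1923 ± 396 CPM (mean ± SD, n = 3), a call lost in 4 of 6 such fits. No member of either list was higher at an unadjusted p under 0.05 or by DESeq2.

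More light signalling factors fell than rose, and clock genes moved in both directions. The shares among all tested genes were 14.5% higher and 13.4% lower. In the light list 3 of 37 tested members were called higher and 17 lower, and the median log2 change was -0.39. HYH (AT3G17609), a relative of the light factor HY5, stood at 16.8, 14.3 and 16.6 CPM before wounding and 2.51, 3.45 and 2.34 CPM at 30 min (log2 change -2.52 ± 0.22 SE, adjusted p = 3.46e-06). BBX31 (AT3G21890) had 37, 59 and 64 counts before wounding and 0, 1 and 0 counts at 30 min, at least 16.1-fold lower with the floor in place of the wounded leaves. BBX20 (AT4G39070) went the other way, from 0.656 ± 0.158 to 6.32 ± 0.416 CPM (mean ± SD, n = 3). BBX24 (AT1G06040), the most highly counted B-box gene of the list, stood at 229.5, 272 and 265 CPM before wounding and 211, 259 and 137 CPM at 30 min and was not called. In the clock list 5 of 26 tested members were called higher (19.2%) and 9 lower (34.6%), and the median log2 change was -0.16. Without replicate 2 at 30 min 8 were called higher, and the median was 0.02 without replicate 2 from before wounding and 0.08 without replicate 1 at 30 min. CCA1 (AT2G46830), a morning factor of the clock, stood at 97.9, 84.2 and 79.7 CPM before wounding and 21.2, 20.8 and 20.98 CPM at 30 min (log2 change -2.06 ± 0.17 SE, adjusted p = 2.04e-06). RVE1 (AT5G17300), a morning factor of the same family, fell from 23.5 ± 2.76 to 5.55 ± 0.658 CPM (mean ± SD, n = 3). LNK1 (AT5G64170) fell from 77.1 ± 4.39 to 30.1 ± 6.78 CPM (mean ± SD, n = 3). CDF1 (AT5G62430) fell from 34.4 ± 5.66 to 8.46 ± 1.47 CPM (mean ± SD, n = 3). The part of clock time in the falls of light, pigment, sulfur and phenolic genes was not tested.

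Among genes of cell expansion, alpha-expansins fell in most cases, while more xyloglucan endotransglucosylases rose than fell. Expansins loosen walls without cutting them, and xyloglucan endotransglucosylases cut and rejoin wall polymers. Of the alpha-expansins 1 of 14 tested members was called higher and 8 lower, and the median log2 change was -1.27. EXPA8 (AT2G40610) stood at 72.6, 93.2 and 98.1 CPM before wounding and 5.15, 9.47 and 12.6 CPM at 30 min (log2 change -3.26 ± 0.31 SE, adjusted p = 5.95e-06). EXPA1 (AT1G69530) stood at 162, 151 and 167 CPM before wounding and 47.5, 45.00 and 64 CPM at 30 min (log2 change -1.62 ± 0.16 SE, adjusted p = 7.41e-06). EXPA3 (AT2G37640) fell from 38.9 ± 6.08 to 11.98 ± 1.33 CPM (mean ± SD, n = 3), while EXPA16 (AT3G55500), nearly silent before, rose from 0.429 ± 0.0757 to 6.39 ± 2.97 CPM (mean ± SD, n = 3). Of the xyloglucan endotransglucosylase genes 9 of 21 tested members were called higher and 4 lower, and the median log2 change was 0.65. XTH4 (AT2G06850) stood at 170.2, 145 and 142 CPM before wounding and 429.5, 498 and 311 CPM at 30 min (log2 change 1.44 ± 0.22 SE, adjusted p = 0.000270). XTH15 (AT4G14130) rose from 1.13 ± 0.197 to 22.7 ± 11.4 CPM (mean ± SD, n = 3). XTH25 (AT5G57550) rose from 1.34 ± 0.326 to 12.9 ± 5.05 CPM (mean ± SD, n = 3), and beside XTH31 the related XTH32 (AT2G36870) fell from 39.3 ± 5.33 to 8.05 ± 1.67 CPM (mean ± SD, n = 3).

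Growth hormone genes showed changes in both directions, and 14.5% of all tested genes were called higher and 13.4% lower. SAUR genes respond to auxin within minutes and promote expansion, and of 41 tested genes of the SAUR-like family 24 were called lower and 3 higher, with a median log2 change of -1.36. The number higher was 1 without replicate 2 from before wounding and 5 without replicate 3 at 30 min. AT2G21210 stood at 63.5, 56.1 and 67.2 CPM before wounding and 13.6, 27.7 and 16.3 CPM at 30 min (log2 change -1.7 ± 0.23 SE, adjusted p = 0.000110). SAUR24 (AT5G18080) fell from 5.5 ± 0.58 to 0.68 ± 0.137 CPM (mean ± SD, n = 3). SAUR26 (AT3G03850) fell from 3.79 ± 1.38 to 0.431 ± 0.0591 CPM (mean ± SD, n = 3). The most highly counted gene of the family stood at 97.7 ± 30.0 CPM before wounding and 119 ± 52.0 CPM at 30 min (mean ± SD, n = 3) and was not called. In the auxin response list 3 of 31 tested members were called higher (9.68%) and 10 lower (32.3%), and the median log2 change was -0.29. IAA4 (AT5G43700) fell from 50.9 ± 2.86 to 18.7 ± 3.08 CPM (mean ± SD, n = 3). IAA14 (AT4G14550) fell from 9.66 ± 1.32 to 3.74 ± 0.333 CPM (mean ± SD, n = 3), both repressors of auxin response, while GH3.3 (AT2G23170), which conjugates auxin to amino acids, rose from 0.862 ± 0.353 to 7.55 ± 2.99 CPM (mean ± SD, n = 3). In the brassinosteroid list 5 of 23 tested members were called higher (21.7%) and 7 lower (30.4%), and the median log2 change was 0.03. Without replicate 1 or 2 from before wounding or replicate 1 at 30 min, 3 were called higher, and the median was -0.03 without replicate 1 from before wounding and -0.11 without replicate 2 at 30 min. BEE2 (AT4G36540), a growth-promoting factor, stood at 104.2, 99.5 and 121 CPM before wounding and 33.97, 34.9 and 37.1 CPM at 30 min (log2 change -1.62 ± 0.13 SE, adjusted p = 1.45e-06). PRE6 (AT1G26945) fell from 38.7 ± 9.46 to 6.46 ± 1.703 CPM (mean ± SD, n = 3). BEE3 (AT1G73830) fell from 10.9 ± 1.6 to 1.59 ± 0.738 CPM (mean ± SD, n = 3) and BAS1 (AT2G26710), which inactivates brassinosteroids, from 7.47 ± 1.61 to 1.44 ± 0.147 CPM (mean ± SD, n = 3).

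In the gibberellin list 7 of 20 tested members were called higher (35%) and 3 lower (15%), and the median log2 change was 0.22. The shares among all tested genes were 14.5% and 13.4%. GA2OX6 (AT1G02400), which inactivates gibberellins, stood at 0.0877, 0.145 and 0.201 CPM before wounding and 27.9, 27.6 and 38.1 CPM at 30 min (log2 change 7.72 ± 0.32 SE, adjusted p = 5.07e-09). GA2OX2 (AT1G30040), of the same function, stood at 0.307, 0.58 and 0.351 CPM before wounding and 11.8, 15.00 and 13.5 CPM at 30 min (log2 change 5.01 ± 0.30 SE, adjusted p = 1.07e-07). RGL3 (AT5G17490), a DELLA repressor of growth, rose from 1.998 ± 1.25 to 27.3 ± 5.84 CPM (mean ± SD, n = 3). The gibberellin-regulated peptides parted, with GASA1 (AT1G75750) rising from 47.9 ± 3.54 to 161 ± 34.8 CPM (mean ± SD, n = 3) and GASA6 (AT1G74670) falling from 427 ± 121 to 177 ± 41.6 CPM (mean ± SD, n = 3). In the cytokinin list 0 of 17 tested members were called higher and 6 lower (35.3%), and the median log2 change was -0.53. At an unadjusted p under 0.05 in edgeR 4 members were higher, and by DESeq2 1 was. Without replicate 3 from before wounding 3 were called lower. The type A response regulators ARR9 (AT3G57040) and ARR8 (AT2G41310) fell from 67.5 ± 1.07 to 29.1 ± 0.872 CPM (mean ± SD, n = 3) and from 21.97 ± 1.36 to 8.99 ± 1.65 CPM (mean ± SD, n = 3), and ARR4 (AT1G10470) stood at 117, 157 and 164.8 CPM before wounding and 149, 133 and 132 CPM at 30 min and was not called. AHK4 (AT2G01830), a cytokinin receptor, fell from 7.71 ± 1.19 to 3.12 ± 0.936 CPM (mean ± SD, n = 3), a call lost without replicate 1 at 30 min. In the cell cycle list 1 of 28 tested members was called higher (3.57%) and 4 lower (14.3%), and the median log2 change was -0.45. The share lower was near the 13.4% of all tested genes, and the log2 change was below 0 in 24 of the 28. Leaving out replicate 2 or 3 from before wounding or replicate 1 or 3 at 30 min left 2 called lower. CYCD3;2 (AT5G67260), a cyclin that drives entry to division, fell from 73.9 ± 8.45 to 45.1 ± 8.59 CPM (mean ± SD, n = 3).

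Epidermal patterning, water channel and wax genes gave smaller counts, beside 14.5% higher and 13.4% lower among all tested genes. In trichome and stomatal patterning 1 of 19 tested members was called higher (5.26%) and 3 lower (15.8%), and the median log2 change was -0.13. TRY (AT5G53200), an inhibitor of trichome fate, had 89, 84 and 28 counts before wounding and 1, 1 and 2 counts at 30 min, at least 19.6-fold lower with the floor in place of the wounded leaves. EPFL9 (AT4G12970), the peptide that promotes stomata, fell from 22.4 ± 0.908 to 7.71 ± 0.597 CPM (mean ± SD, n = 3), and FAMA (AT3G24140), which sets guard cell fate, rose from 7.19 ± 0.991 to 18.7 ± 0.786 CPM (mean ± SD, n = 3). Of the aquaporins 4 of 17 tested members were called higher (23.5%) and 2 lower (11.8%), and the median log2 change was 0.06. Without replicate 2 or 3 from before wounding or replicate 2 at 30 min, 2 were called higher, and the median was -0.04 without replicate 2 from before wounding and -0.12 without replicate 2 at 30 min. PIP2;7 (AT4G35100) rose from 461 ± 36.03 to 919 ± 286 CPM (mean ± SD, n = 3). PIP2;6 (AT2G39010) rose from 345 ± 22.2 to 552 ± 49.3 CPM (mean ± SD, n = 3). Of the cuticular wax genes 4 of 20 tested members were called higher (20%) and 2 lower (10%), and the median log2 change was 0.13. CER6 (AT1G68530), which elongates very long fatty acids, rose from 108.4 ± 9.84 to 216 ± 25.4 CPM (mean ± SD, n = 3). The number of wax genes called higher was 2 without replicate 1 or 3 from before wounding or replicate 2 at 30 min.

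Genes of the other defence hormones moved in both directions, and 14.5% of all tested genes were called higher and 13.4% lower. In ethylene synthesis and perception 5 of 22 tested members were called higher (22.7%) and 6 lower (27.3%), and the median log2 change was -0.08. The number higher was 3 without replicate 1 or 3 and 2 without replicate 2 from before wounding, and the number lower was 3 without replicate 2 from before wounding or replicate 1 at 30 min. The synthase gene ACS8 (AT4G37770) rose from 0.342 ± 0.269 to 4.23 ± 1.04 CPM (mean ± SD, n = 3), and ACS4 (AT2G22810) fell from 7.88 ± 2.52 to 2.04 ± 1.18 CPM (mean ± SD, n = 3). EBF1 (AT2G25490), an F-box protein that restrains ethylene signalling, stood at 28.3, 29.00 and 32.5 CPM before wounding and 53.8, 57.6 and 56.3 CPM at 30 min (log2 change 0.9 ± 0.13 SE, adjusted p = 0.000224). In the abscisic acid list 7 of 25 tested members were called higher (28%) and 2 lower (8%), and the median log2 change was 0.38. The number higher was 3 without replicate 2 from before wounding and 4 without replicate 1 or 2 at 30 min, and the median was 0.16 without replicate 3 at 30 min. CYP707A2 (AT2G29090), which breaks abscisic acid down, stood at 13.3, 11.8 and 14.6 CPM before wounding and 1.81, 1.26 and 1.11 CPM at 30 min (log2 change -3.27 ± 0.32 SE, adjusted p = 8.00e-06). PYL5 (AT5G05440), a receptor, rose from 53.6 ± 11.8 to 113.9 ± 16.7 CPM (mean ± SD, n = 3), BG1 (AT1G52400), which frees abscisic acid from its glucose ester, from 4.66 ± 1.06 to 9.62 ± 1.46 CPM (mean ± SD, n = 3), and ABA2 (AT1G52340), of its synthesis, fell from 25.8 ± 3.29 to 12.2 ± 2.9 CPM (mean ± SD, n = 3). In the salicylic acid list 5 of 16 tested members were called higher (31.25%) and 3 lower (18.75%), and the median log2 change was -0.17. Without replicate 3 of either group 3 were called higher. DMR6 (AT5G24530), a salicylic acid hydroxylase, stood at 2.28, 3.38 and 4.12 CPM before wounding and 24.9, 27.6 and 22.04 CPM at 30 min (log2 change 2.93 ± 0.34 SE, adjusted p = 3.58e-05). EDS5 (AT4G39030), which exports its precursor from the plastid, rose from 0.361 ± 0.166 to 2.33 ± 0.361 CPM (mean ± SD, n = 3), NPR3 (AT5G45110), a receptor, from 20.4 ± 2.48 to 44.97 ± 11.6 CPM (mean ± SD, n = 3), and PR5 (AT1G75040), a pathogenesis-related gene, fell from 6.68 ± 1.17 to 1.57 ± 0.329 CPM (mean ± SD, n = 3). Among antioxidant genes 4 of 28 tested members were called higher (14.3%) and 6 lower (21.4%), and the median log2 change was -0.14. The share higher was thus near that of all tested genes. VTC2 (AT4G26850), which controls ascorbate synthesis, stood at 281, 290.0 and 290.0 CPM before wounding and 49.3, 67.2 and 51.3 CPM at 30 min (log2 change -2.36 ± 0.16 SE, adjusted p = 2.63e-07). DHAR1 (AT1G19570), which recycles ascorbate, stood at 33.6, 44.2 and 32.5 CPM before wounding and 132, 131 and 187 CPM at 30 min (log2 change 2.03 ± 0.18 SE, adjusted p = 2.61e-06). CAT1 (AT1G20630), a catalase, rose from 40.7 ± 1.02 to 85.2 ± 5.44 CPM (mean ± SD, n = 3), and MDAR4 (AT3G27820) fell from 168 ± 8.42 to 93.4 ± 6.15 CPM (mean ± SD, n = 3).

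Some values can include reads of another gene. The strand setting of the counting is not given in the sources used here, and 44 of the 180 genes named in the text and the closing section overlap a gene on the opposite strand in the RefSeq annotation, so their values are uncertain in that respect. They are BAK1, CML12, MPK3, RRTF1, WRKY40, MYB44, SNAP33, CLC2, RABA1f, RAB8C, AT3G28900, AT5G24490, ASN1, BCAT2, DIN10, P5CDH, NRT1.5, UPM1, STP1, ERDL6, SPS4F, ASA1, IMD1, GSTF10, CHS, F3H, APR1, APR2, APR3, SERAT2;1, LHCB1.3, CAO, BBX20, BBX24, RVE1, LNK1, XTH15, GASA6, ARR9, ARR8, CYCD3;2, ABA2, EDS5 and AT4G00165. In 19 named genes under 90% of the stretches of 50 bases of the transcript were found in no other gene on either strand, the least in F3H (12.8%), RRTF1 (40.8%), AT4G00165 (47.1%), APR2 (54.9%) and MYB44 (55.3%). Neither limit applied to 133 of the 180.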

How the data were processed

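Polyadenylated RNA of 6 wild-type Col-0 leaf libraries, 3 from before wounding and 3 from 30 min after it, was analysed with the 3 libraries from 60 min in the same fit. The authors deposited raw counts, that is whole reads for each gene without normalization, and per the submitters' processing notes used FastQC 0.11.8, Trimmomatic 0.36, HISAT2 2.2.0 and featureCounts with TAIR10. The labels name TRIzol extraction and the TruSeq RNA kit. Strand setting, annotation release and treatment of reads that match several genes are not given in the sources used here, so overlapping genes and near-identical paralogues may share reads. Columns were matched to samples by the library names in the labels. Each count column had 1 sample. The table held 27206 genes and no library total under 14300929 counts.

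After filterByExpr 17622 genes were left, and edgeR 4.0.16 (R 4.3.3) fitted them with TMM factors, glmQLFit, glmQLFTest and the group as the only term, with a two-sided test and Benjamini-Hochberg adjustment over the tested genes and a threshold of 0.05. The common biological coefficient of variation was 0.217. CPM values use library totals scaled by TMM, and means carry the SD over 3 libraries. The SE of a log2 change is its size over the root of F. Where a group held 3 counts or fewer in every library, a fold is a lower bound against 3 counts a library, which covers counting error only. P-values measure the spread between the deposited biological replicates. The test was checked on simulated counts with a small set of changed genes, balanced in direction, and the same dispersion for every gene. The data hold far more called genes and a spread that differs by gene, so the check does not measure error rates here.

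Members and lists were chosen with earlier results of these data known. Named genes were the 8 largest rises and 8 largest falls among called genes with at least 1 CPM in the lower group, 20 counts in each library of the group that is higher, without overlap, the 5 largest gains and losses of mean CPM, and up to 4 called members of each of 37 lists with the smallest p plus the member with the most counts, a few of which are left out of the text. Genes named from RefSeq terms and families were picked, after the files were seen, from those with the smallest p or the most counts. Some genes of the same rank or better were left out. Symbols, notes and promoters came from RefSeq on TAIR10.1, in which 17611 tested genes were found. The alternatives were DESeq2 1.42.0, other scalings and filters, a fit to the 6 libraries alone, a stricter threshold, a block by replicate number and leaving out each library.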

Additional observations from a re-analysis of the deposited data

Results flagged for a closer look

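For 24 of the 180 named genes the level differed again between 30 and 60 min, with an adjusted p below 0.05 in edgeR for 60 min against 30 min. Of all tested genes 0.721% were higher and 1.3% lower at 60 min than at 30 min. Of the 24 genes, 14 moved back and 10 moved further, and log2 changes from 30 to 60 min are given here.

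Among genes that had risen by 30 min, 14 moved back. The ethylene response factors RRTF1 (-3.46), DDF1 (-3.51) and ERF1A (-1.47) were lower at 60 min, as were WRKY40 (-2.06) and WRKY18 (-1.25), the NAC factors ANAC055 (-1.22) and RD26 (-1.19) and MYB44 (-1.24). The kinase genes CPK28 (-1.38), MPK3 (-1.20) and MEKK1 (-0.95) moved back too. So did the transporter gene AT1G61890 (-1.46), the ARM repeat gene AT1G24330 (-0.92) and the salicylic acid receptor gene NPR3 (-1.02).

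A few risen genes went higher still at 60 min. They were BG1 (2.67), which frees abscisic acid from its glucose ester, the ethylene response factor RAP2.6 (2.03), LTI78 (1.38), the inhibitor gene AT5G62360 (1.35) and the channel gene CNGC2 (0.68). Genes that had fallen and were lower again at 60 min were IAA14 (-1.34), GASA6 (-1.07), MYB77 (-0.76), CCA1 (-0.75) and SPS4F (-0.67).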

How the results depend on the processing

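The counts of genes called at 30 min (4930, with 2561 higher and 2369 lower) stayed within 1.5 times in every alternative but one. An adjusted p under 0.01 left 2981 genes, 1597 higher and 1384 lower. DESeq2 called 5331 genes. Leaving out 1 library, which leaves fewer samples, gave 3474 to 4612 genes, 1798 to 2380 higher and 1676 to 2232 lower. The labels do not say whether replicate numbers pair the samples. Deviations from the group mean of samples with the same number at 30 min and before wounding correlated at 0.01, 0.11 and -0.23. Those of samples with unlike numbers correlated at -0.30 to 0.26, so these values cannot decide on pairing. With the replicate block 4006 genes were called, 2096 higher and 1910 lower. Of 180 named genes, none reversed under any alternative, 32 of the recomputed calls were lost and 1 was gained. Library size alone, the scaling that moves all genes up by about 0.1, turned the sign of the list medians of ethylene synthesis (-0.08 to 0.01), photosystem (-0.01 to 0.08) and arginine, polyamine and proline metabolism (-0.04 to 0.05) and no other. Leaving out 1 library turned the medians of the clock (-0.16 to at most 0.08), ethylene synthesis (to 0.02), photosystem (to at most 0.09), trichome and stomatal patterning (-0.13 to 0.04), antioxidant (-0.14 to 0.02), brassinosteroid (0.03 to at lowest -0.11) and aquaporin (0.06 to at lowest -0.12) lists. The replicate block turned that of brassinosteroids (-0.01) and a filter at 1 CPM in 3 libraries that of ethylene synthesis (0.09). With the block 3 Calvin cycle genes were called lower and 3 genes of nitrate and ammonium assimilation higher. The shallow replicate 1 at 30 min limits genes with few counts, and no depth can separate time after wounding from the hour of harvest.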

Other observations

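Families taken from the RefSeq product names, chosen after the files were seen, are given beside the lists. Of 97 tested resistance genes of the NB-ARC kind, 20 were called higher and 11 lower. Of 1013 tested protein kinase genes, 217 (21.4%) were called higher and 106 (10.5%) lower, against 14.5% and 13.4% of all tested genes. Of 125 leucine-rich repeat receptor kinase genes, 19 were called higher and 19 lower. Cytochrome P450 genes were called lower in 28 of 98 cases and UDP-glycosyltransferase genes in 29 of 94, with 12 and 17 called higher. Of 39 lipid transfer protein genes 13 were called lower and 4 higher. LP1 (AT2G38540), the gene of lipid transfer protein 1, stood at 551, 616 and 595 CPM before wounding and 215, 185 and 217 CPM at 30 min (log2 change -1.51 ± 0.18 SE, adjusted p = 3.50e-05). AT4G00165, of the same superfamily, fell from 128 ± 20.13 to 33.4 ± 4.24 CPM (mean ± SD, n = 3). LTP6 (AT3G08770) fell from 6.48 ± 1.11 to 0.579 ± 0.396 CPM (mean ± SD, n = 3). Without replicate 3 at 30 min the log2 change of LTP6 was -4.16 in place of -3.44. The most highly counted lipid transfer protein gene stood at 1923 ± 257 CPM before wounding and 2195 ± 577 CPM at 30 min (mean ± SD, n = 3) and was not called. Translation initiation and elongation factors were called lower in 22 of 91 cases and higher in 6. Of 201 pentatricopeptide repeat genes, whose products mostly act on organelle RNA, 23 were called lower (11.4%) and 6 higher (2.99%), both under the shares of all tested genes. Histone genes were rarely called, with 2 of 44 higher and 2 lower.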
